A study of Mus musculus with 19 samples.

Results

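The type I interferon-stimulated genes are a set of 40 named mouse genes, and their transcript levels were read in whole bone marrow of 5 genotypes. The members were taken by symbol from a table of 34432 genes, where 40 of 40 were found. All 40 were among the 13976 genes tested, those whose mean reached 10 normalized counts. Marrow was flushed from the leg bones of untreated mice aged 8 weeks, and polyadenylated RNA was sequenced in 19 libraries. The wild type (WT, 3 libraries) was C57/BL6, and each other genotype had 4 libraries. VAV was the control that carries the Vav-iCre transgene alone, CDK8KO carried Cdk8 flox/flox with Vav-iCre, CDK19KO was Cdk19 null, and DKO carried Cdk8 flox/flox with Vav-iCre on the Cdk19 null background. Vav-iCre is active in blood-forming cells, so Cdk8 is targeted there, whereas the Cdk19 null allele is in every cell. VAV is the control for the Cre carriers CDK8KO and DKO, and WT the control for CDK19KO. Whether libraries of a genotype came from separate mice is not in the labels, and a p-value here reflects only library-to-library spread, which may be technical.

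Type I interferons bind the receptor formed by IFNAR1 and IFNAR2, whose kinases JAK1 and TYK2 signal to the complex ISGF3. This complex, which contains STAT2 and IRF9, binds the interferon-stimulated response element (ISRE) near the start of many interferon-stimulated genes. Marrow keeps a low tonic expression of such genes without infection, and stem cells, monocytes and plasmacytoid dendritic cells are known to respond to interferon. CDK8 and CDK19 are the paralogous kinases of the Mediator kinase module, and CDK8 is known to phosphorylate transcription factors.

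The ISRE is the sequence by which ISGF3 reaches these genes, so the stretches that hold it are shown for members of the Ifit and Oas families and for Isg15 and Rsad2. RefSeq start sites (GRCm38.p6) gave a window of 300 bases, 250 before and 50 after the start, for 29 of the 40 members. Its core, the letters GAAA followed by any 2 bases and GAAA again, was searched on both strands and occurred in 13 of the 29 windows (44.8%), against 3.99% of the 27025 genes with a window. A match is a description of letters and not a bound site, and the search reads no sequence outside the window. Capitals below mark the ISRE matches, several of which overlap, and each line reads 5′ to 3′ on the strand of the gene.
Ifit1: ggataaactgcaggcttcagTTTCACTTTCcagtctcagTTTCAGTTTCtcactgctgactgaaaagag
Ifit3: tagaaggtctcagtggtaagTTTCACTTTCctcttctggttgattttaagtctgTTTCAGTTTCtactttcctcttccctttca
Ifit3b: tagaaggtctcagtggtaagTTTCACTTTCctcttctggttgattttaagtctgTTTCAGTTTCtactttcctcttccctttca
Oas3: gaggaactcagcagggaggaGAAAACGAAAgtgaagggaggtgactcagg
Oas1a: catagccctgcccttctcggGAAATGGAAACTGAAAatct
Oas1g: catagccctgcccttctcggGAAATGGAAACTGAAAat
Isg15: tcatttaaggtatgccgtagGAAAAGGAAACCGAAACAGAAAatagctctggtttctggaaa
Rsad2: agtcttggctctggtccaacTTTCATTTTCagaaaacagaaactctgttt

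The Ifit stretches lie on the plus strand of chromosome 19, Ifit1 at chr19:34640765-34640833, Ifit3 at chr19:34583353-34583436 and Ifit3b at chr19:34607749-34607832. Those of Ifit3 and Ifit3b were identical over 84 of 84 bases. The Oas stretches lie on the minus strand of chromosome 5, Oas3 at chr5:120777705-120777754, Oas1a at chr5:120907526-120907565 and Oas1g at chr5:120887614-120887651. Oas1a and Oas1g shared 38 of 38 bases. The transcripts of these pairs were not compared, so how well reads were split within Ifit3 and Ifit3b, and within Oas1a and Oas1g, is not known. Isg15 (chr4:156200855-156200916, minus strand) and Rsad2 (chr12:26456543-26456592, minus strand) are shown because they hold the element and yet had other patterns across libraries, described further on. The remaining members with a match were Bst2, Ddx60, Eif2ak2, Ifih1 and Trim30a. The 16 windows without one included that of Ifit2, of the same family as Ifit1, and those of Cmpk2, Ifi44, Irf7, Oasl1, Oasl2 and Sp100.

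Libraries held 14881701 to 33010241 reads assigned to genes. Markers of neutrophils, a main cell type of bone marrow, took 2.94% to 5.94% of the normalized counts of a library. Cdk19 checked the null allele, at 1091 ± 62.5 (SD, n = 4) normalized counts in CDK19KO and 1173 ± 43.1 (n = 4) in DKO against 3157 ± 99.7 (n = 3) in WT. Cdk8 was 1013 ± 249 in CDK8KO and 994 ± 230.1 in VAV (n = 4 each), and 798 ± 62.0 in DKO (n = 4), so this whole-gene value does not separate CDK8KO from its control and says nothing of a removed exon. The label CDK8KO is therefore used as the submitters gave it. Libraries VAV 3 and CDK8KO 1 held the most erythroid transcripts, with summed marker levels of 737070 and 856583 normalized counts against 26646 to 303110 in the other 17. Skeletal muscle markers were highest in CDK19KO 4 (23488) and DKO 4 (6311). In bulk marrow, a change in the number of cells of a type and a change in RNA per cell cannot be told apart.

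All members were expressed in every library, with a lowest single value of 27.4 normalized counts, for Oas1g in CDK8KO 3. Per kilobase of exon, the most abundant member was Ifi27l2a, a small interferon-induced membrane protein, with a mean over all libraries of 2063 normalized counts per kb. The least abundant was Mx2, of the antiviral Mx family of GTPases, at 16.5 per kb, and the median member stood at 194. The gene annotation lists Mx2 as a polymorphic pseudogene. Samd9l, a large regulator of myeloid cells, followed Ifi27l2a at 1310 per kb, and Trim30a, a TRIM protein that restrains Toll-like receptor signalling, at 829. Members clustered in the genome. Chromosomes 5 and 16 held 6 each, among them the Oas genes and the neighbours Parp9 and Dtx3l, and chromosome 19 held the 4 Ifit genes.

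The set was highest in DKO, where it was also the most even between libraries. For each library, the member level was taken as the median over the 40 members of the log2 difference from the member's own mean over all libraries. It was 0.35, 0.51, 0.43 and 0.44 in DKO 1 to 4, and 0.43, 0.22, -0.14 and 0.06 in VAV 1 to 4. In CDK8KO it was -0.43, 0.15, -0.37 and -0.07, in CDK19KO 0.27, -0.20, -0.28 and -0.33, and in WT -0.50, -0.19 and -0.28. The DKO libraries lay above all others except VAV 1, and the 3 WT libraries were all below 0. CDK19KO 1 stood apart from its own genotype, with 40 of 40 members above their mean, against 6, 7 and 3 in CDK19KO 2 to 4.

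**Figure D1:**
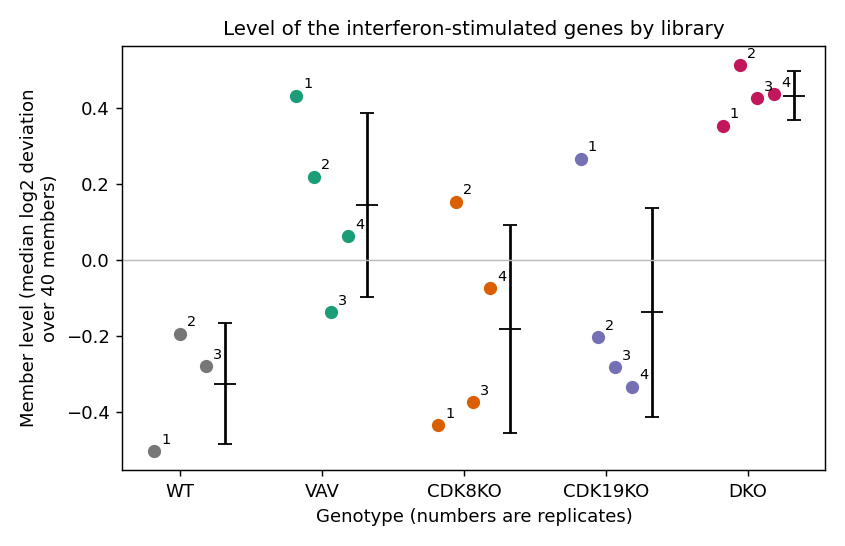
Member level of each library (points, numbered by replicate) by genotype, in log2 units, with the mean and SD of each genotype as bars. The DKO libraries lie between 0.35 and 0.51, and VAV, CDK8KO and CDK19KO each spread over a wider range.

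By group mean, 35 of the 40 members were highest in DKO, and 30 were lowest in WT. The order of group means was not counted over all tested genes, so these counts have no share beside them. The 5 that were not highest in DKO were Trim25, Rsad2, Isg20, Isg15 and Mx1. The median SD of a member between libraries was 0.17 on the log2 scale in DKO and 0.18 in WT, against 0.39 in VAV, 0.38 in CDK8KO and 0.32 in CDK19KO. Over all tested genes the same medians were 0.24, 0.19, 0.28, 0.34 and 0.18, so the members varied more than the typical gene in VAV, CDK8KO and CDK19KO, and less in DKO and WT.

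**Figure D2:**
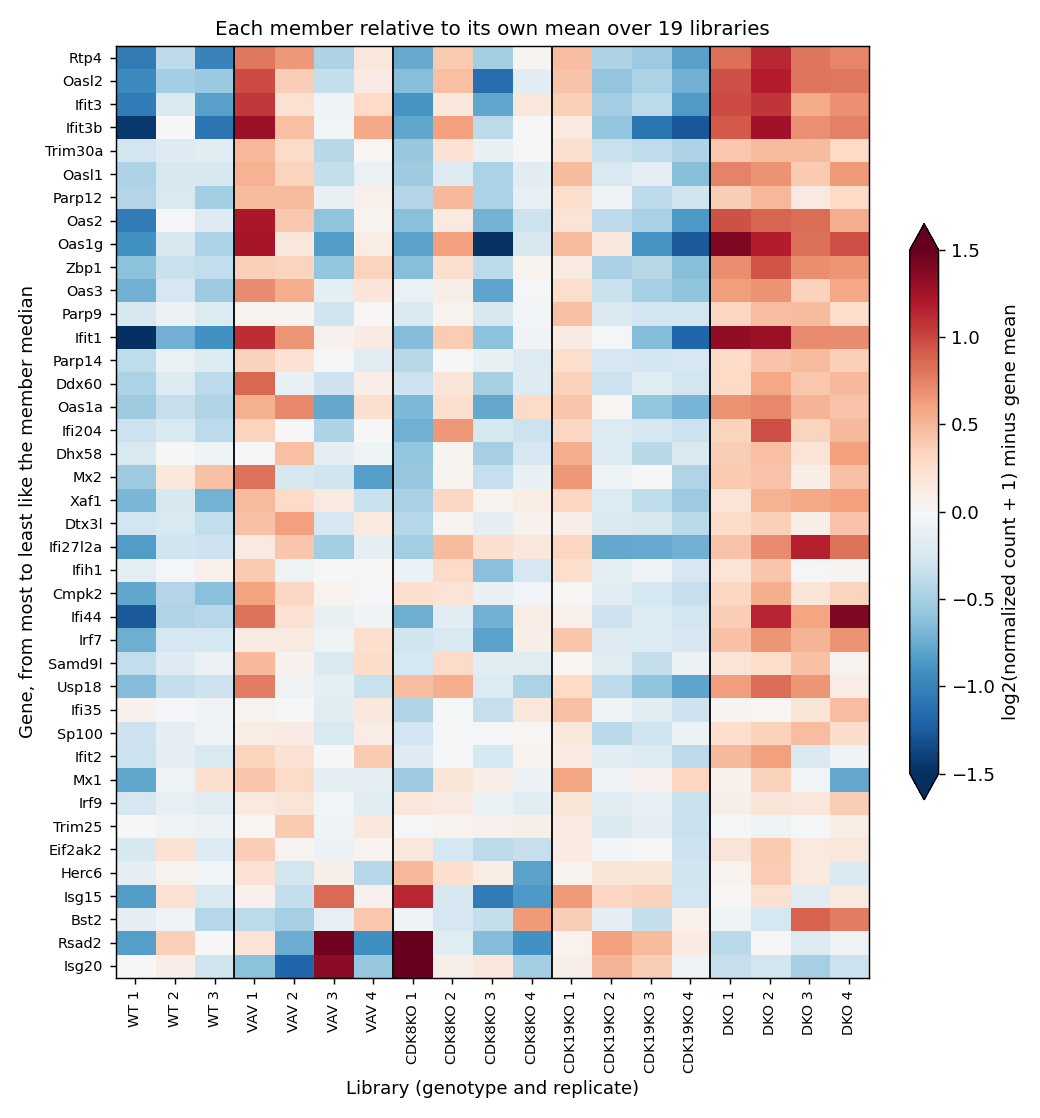
Each of the 40 members (rows) in each of the 19 libraries (columns), as log2(normalized count + 1) minus the gene's mean over all libraries, ordered from the member most like the set's median to the one least like it. Most rows are red in the 4 DKO libraries and VAV 1 and blue in WT, and the bottom rows, Rsad2 and Isg20, are red in VAV 3 and CDK8KO 1.

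The libraries labelled DKO were compared with those of each single knockout. Against CDK8KO, 36 of the 40 members were higher in DKO and 6 passed the test (limma, adjusted p under 0.05), namely Irf7, Zbp1, Ifi44, Oasl2, Parp14 and Oasl1; over all genes tested, 1.05% passed as higher. The median member was 1.43-fold higher (log2 0.51), against a median of 0.00 over all tested genes. At an unadjusted p below 0.05, 26 were higher (7.57% of all genes), and 21 members had every DKO library above every CDK8KO library (3.63% of all genes).

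Against CDK19KO, 36 of the 40 members were again higher in DKO, with a median of 1.44-fold (log2 0.53; all genes -0.01). The 10 that passed were Cmpk2, Ifi27l2a, Ifit1, Ifit3b, Oas3, Oasl2, Parp14, Rtp4, Sp100 and Zbp1, where 1.34% of all genes passed as higher. At an unadjusted p under 0.05, 29 members were higher (8.62% of all genes). All DKO libraries lay above all CDK19KO libraries for 20 members (7.27% of all genes) and below them for 2, Rsad2 and Isg20 (7.74%). Both comparisons use the same 4 DKO libraries. Of the 13 members that passed in either, Oasl2, Parp14 and Zbp1 passed in both. Of these 13, 9 had a promoter window, and the ISRE letters were in 3 of them, those of Ifit1, Ifit3b and Oas3, whereas 10 of the 20 windows of the other members held the letters.

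**Figure D3:**
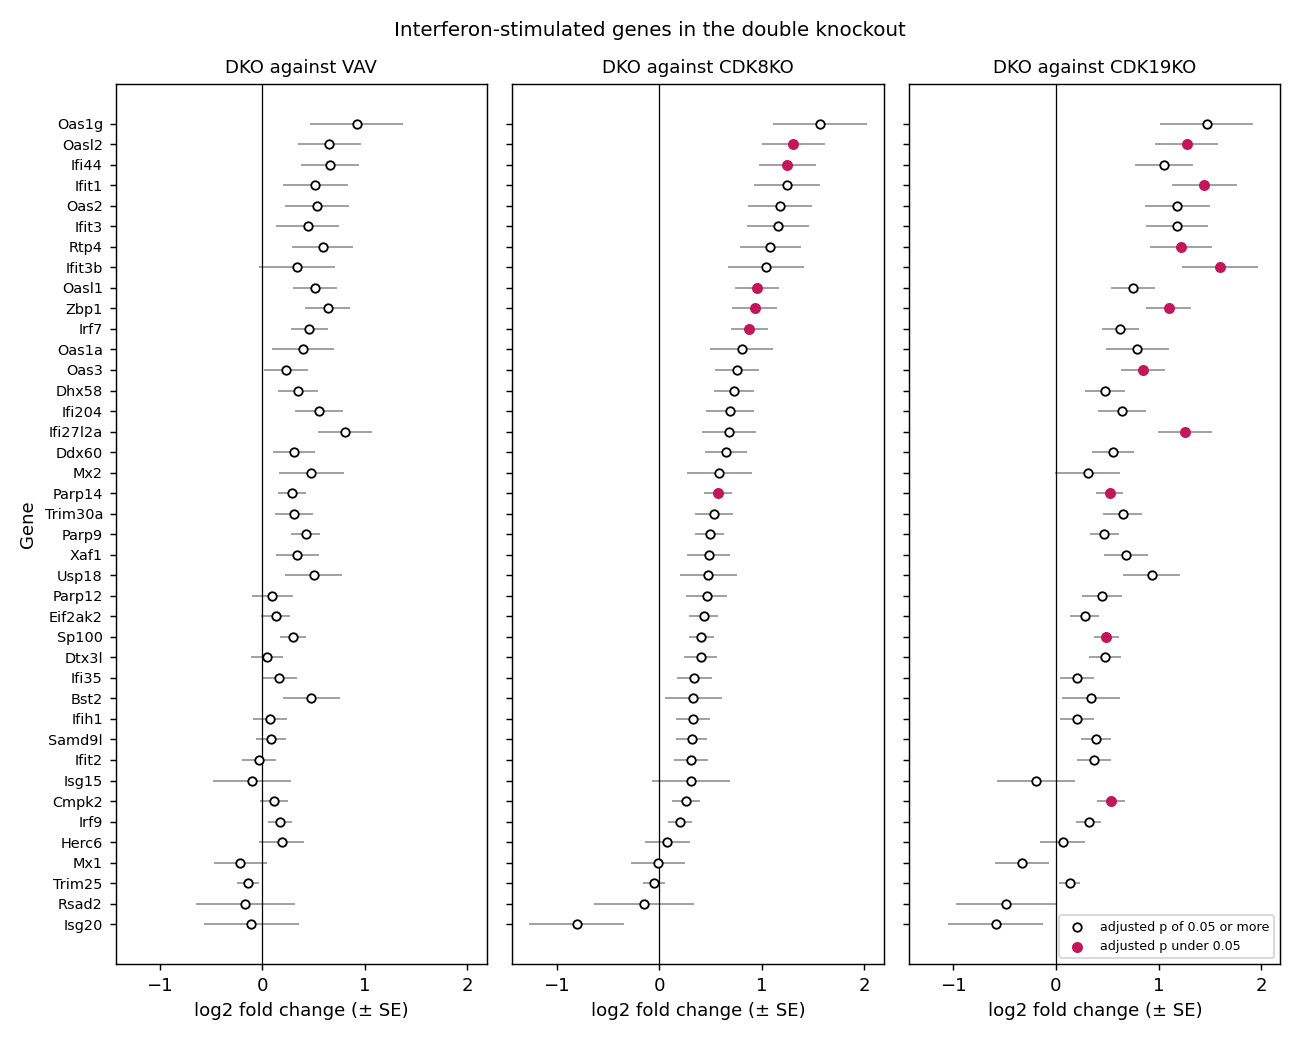
The log2 fold change of each of the 40 members (± SE) in DKO against VAV, CDK8KO and CDK19KO, with members that passed at an adjusted p under 0.05 filled. Most points lie to the right of 0 in all 3 panels, 6 are filled against CDK8KO, 10 against CDK19KO and 0 against VAV.

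Markers of several cell types differed in level along with the members. All 14 tested erythroid markers were lower in DKO, by a median log2 difference of -1.61 against CDK8KO and -1.39 against CDK19KO. None passed in limma, and 13 and 8 of them were lower at an unadjusted p below 0.05. Their summed level was 30396 to 92633 normalized counts in DKO, 90765 to 856583 in CDK8KO and 116832 to 303110 in CDK19KO. With the erythroid level of each library as a covariate, an alternative chosen after seeing the data, the median member was 0.41 higher than in CDK8KO and 0.37 higher than in CDK19KO, and 0 members passed in either. Under that covariate 217 and 130 of all genes passed, of which 114 and 99 were among the 238 and 279 that passed without it. The plasmacytoid dendritic cell markers, a cell type known for making interferon, had medians of -0.06 and 0.04, with summed levels of 12676 to 19907 in DKO, 11957 to 18714 in CDK8KO and 12991 to 15852 in CDK19KO. Of these 11, 1 passed in limma, Ccr9 against CDK19KO (log2 1.37 ± 0.31, adjusted p = 0.0250). At an unadjusted p below 0.05, 2 were higher and 0 lower in each comparison. Of 11 neutrophil markers, 8 were lower in DKO than in CDK8KO (median -0.49), and 2 passed, the granule genes Mmp8, which fell by 0.86, and Camp, which fell by 0.95. Against CDK19KO 7 were higher and 4 lower (median 0.10), and Camp alone passed (-0.72). The neutrophil sums were 729256 to 1008854 in DKO, 755344 to 1428595 in CDK8KO and 628871 to 875016 in CDK19KO. Of 10 T and NK cell markers, 8 were higher in DKO than in CDK8KO (median 0.68) and 7 than in CDK19KO (median 0.66), with 4 and 5 higher and 1 lower in each at an unadjusted p below 0.05. Those that passed in limma were Cd8a, up by 1.68 and 1.67, and Ncr1, at -1.41 and -1.27. The T and NK cell sums were 2666 to 5163 in DKO, 1687 to 2845 in CDK8KO and 2140 to 2514 in CDK19KO. Of 10 tissue macrophage markers, 5 were higher and 5 lower in DKO than in CDK8KO (median 0.02). Against CDK19KO 1 was higher and 9 lower (median -0.34). Cd163 (-2.98 and -3.04) and Hmox1 (-0.99 and -1.26) passed as lower against both, and Mertk (-0.77) against CDK19KO. The tissue macrophage sums were 17590 to 27434 in DKO, 19236 to 23177 in CDK8KO and 24662 to 33111 in CDK19KO. Of 9 B cell markers, 8 were lower in each comparison (medians -0.32 and -0.36) and none passed. Of 8 monocyte markers, 5 were lower and 3 higher in DKO than in CDK8KO (median -0.17), and Fn1 passed as lower. Against CDK19KO 6 were higher and 2 lower (median 0.20), and none passed. At an unadjusted p below 0.05 in limma, 2 were lower than in CDK8KO and 3 higher than in CDK19KO. The monocyte sums were 52506 to 75004 in DKO, 42527 to 96347 in CDK8KO and 48556 to 65187 in CDK19KO. Apart from skeletal muscle, whose markers include genes at 0, no marker list had a gene at 0 in any library. The part of these cell types in the member result was not tested.

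The number of calls changed when single libraries were left out. Brackets give the share of all genes tested that passed in the same fit. Against CDK8KO, 1 (0.88%), 13 (1.65%), 1 (1.36%) and 7 (3.02%) members passed without CDK8KO 1 to 4 in turn. Without DKO 1 to 4 the counts were 2 (1.22%), 0 (0.851%), 3 (0.995%) and 0 (0.751%). Against CDK19KO, 18 (1.35%), 1 (0.851%), 1 (0.944%) and 0 (0.923%) passed without CDK19KO 1 to 4. Without DKO 1 to 4 there were 3 (1.62%), 1 (0.887%), 2 (1.35%) and 3 (1.35%). Over these fits, 105 to 422 of all genes passed against CDK8KO and 119 to 227 against CDK19KO. The median difference ranged only from 0.49 to 0.64 and from 0.48 to 0.67 over the same fits. Of the 17 calls in these and the VAV against WT comparison, 0 were kept with each library left out, and 0 in every other alternative.

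Among effectors that act on viral RNA and on translation (13 members), 12 were higher in DKO than in each single knockout. Their median log2 difference was 0.95 against CDK8KO, where 3 passed, and 1.10 against CDK19KO, where 5 passed. Zbp1, a sensor of Z-form nucleic acids that can trigger necroptosis, stood at 733, 872, 738 and 716 normalized counts in DKO 1 to 4. It was 290, 535, 346 and 472 in CDK8KO, 499, 324, 338 and 292 in CDK19KO, 581, 570, 303 and 570 in VAV, and 295, 359 and 352 in WT. Every DKO library was above every other library. Zbp1 was higher than in CDK8KO by 0.93 ± 0.22 (log2 ± SE, limma adjusted p = 0.0364) and than in CDK19KO by 1.10 ± 0.22 (adjusted p = 0.0137).

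Oasl2, an oligoadenylate synthetase-like protein, measured 3565, 4145, 3193 and 3158 in DKO. It measured 1171, 2496, 827 and 1629 in CDK8KO, 2463, 1208, 1318 and 1112 in CDK19KO, 3601, 2369, 1431 and 1996 in VAV, and 941, 1286 and 1238 in WT. DKO did not overlap either single knockout, and VAV 1 reached the DKO range. The differences were 1.31 ± 0.31 against CDK8KO (limma adjusted p = 0.0343) and 1.27 ± 0.31 against CDK19KO (adjusted p = 0.0370). Oasl1, its paralog and a known repressor of Irf7 translation, was 361, 345, 284 and 337 in DKO, 149, 188, 155 and 193 in CDK8KO, 299, 184, 194 and 138 in CDK19KO, 309, 271, 167 and 201 in VAV, and 155, 182 and 183 in WT. All DKO libraries were above all CDK8KO libraries, whereas CDK19KO 1 lay within the DKO range. Oasl1 passed against CDK8KO (0.95 ± 0.21, limma adjusted p = 0.0261) and not against CDK19KO (0.75 ± 0.21, adjusted p = 0.0800).

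Oas3, a synthetase of the 2′-5′ oligoadenylates that activate RNase L, was 3476, 3585, 2875 and 3366 in DKO. Its values were 2097, 2389, 1303 and 2229 in CDK8KO, 2699, 1790, 1600 and 1484 in CDK19KO, 3681, 3303, 2030 and 2562 in VAV, and 1373, 1893 and 1546 in WT. DKO was above each library of both single knockouts and overlapped VAV. Oas3 passed against CDK19KO (0.85 ± 0.21, limma adjusted p = 0.0440) and not against CDK8KO (0.76 ± 0.21, adjusted p = 0.0806). The other synthetases had the same direction without passing, Oas1g by 1.57 ± 0.46, Oas2 by 1.18 ± 0.31 and Oas1a by 0.81 ± 0.31 against CDK8KO.

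Ifit1, which binds viral RNA that lacks cap methylation, was 642, 628, 417 and 418 in DKO. It was 162, 332, 166 and 246 in CDK8KO, 279, 250, 162 and 111 in CDK19KO, 553, 404, 268 and 279 in VAV, and 79.9, 154 and 136 in WT. DKO lay above both single knockouts and WT in every library, and VAV 1 lay inside its range. Ifit1 passed against CDK19KO (1.45 ± 0.32, limma adjusted p = 0.0215) and not against CDK8KO (1.25 ± 0.32, adjusted p = 0.0540). Ifit3, a related member of the same gene cluster, was 339, 364, 254 and 277 in DKO, 92.4, 192, 99.6 and 193 in CDK8KO, 220, 120, 130 and 95.3 in CDK19KO, 359, 202, 165 and 212 in VAV, and 82.5, 148 and 97.2 in WT. Again DKO stood above every single-knockout library, but neither difference passed (1.16 ± 0.30, adjusted p = 0.0621, and 1.18 ± 0.30, adjusted p = 0.0522). Its copy Ifit3b was 203, 257, 173 and 181 in DKO, 62.0, 165, 81.0 and 108 in CDK8KO, 118, 71.4, 49.6 and 43.6 in CDK19KO, 263, 147, 104 and 159 in VAV, and 38.7, 106 and 49.9 in WT. Ifit3b passed against CDK19KO (1.60 ± 0.37, limma adjusted p = 0.0289), and its reads may be shared with Ifit3. In this role Ifit2 and Eif2ak2, the kinase PKR, had smaller differences that did not pass (0.32 ± 0.17 and 0.43 ± 0.14 against CDK8KO), and Isg20 was the member with the opposite sign.

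Of the other antiviral effectors (12 members), 10 were higher in DKO than in each single knockout, with medians of 0.45 against CDK8KO (1 passed) and 0.51 against CDK19KO (4 passed). Ifi27l2a was 1183, 1434, 1977 and 1544 normalized counts in DKO. In CDK8KO it was 611, 1226, 1044 and 989, in CDK19KO 1098, 518, 519 and 534, in VAV 965, 1177, 615 and 793, and in WT 493, 717 and 711. DKO exceeded every VAV and CDK19KO library, and CDK8KO 2 was just above DKO 1. It passed against CDK19KO at 1.26 ± 0.26 (limma adjusted p = 0.0165).

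Rtp4, a Golgi chaperone that also restrains type I interferon responses, was 1120, 1384, 1098 and 1049 in DKO, against 373, 829, 440 and 647 in CDK8KO, 867, 456, 431 and 356 in CDK19KO, 1092, 986, 456 and 706 in VAV, and 302, 477 and 313 in WT. The genotypes with a single knockout did not reach the DKO range. Rtp4 passed against CDK19KO (1.22 ± 0.30, limma adjusted p = 0.0390). Ifi44 was 129, 222, 152 and 267 in DKO, 59.8, 89.9, 60.2 and 109 in CDK8KO, 106, 80.7, 87.1 and 82.6 in CDK19KO, 177, 117, 92.4 and 95.7 in VAV, and 41.2, 73.1 and 74.2 in WT. Its DKO values spread widely but lay above both single knockouts, and it passed against CDK8KO (1.25 ± 0.28, limma adjusted p = 0.0261).

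Sp100, a component of nuclear bodies that silences viral genomes, was 6827, 7303, 7886 and 6897 in DKO, 4692, 5637, 5673 and 5807 in CDK8KO, 6411, 4327, 4642 and 5415 in CDK19KO, 6204, 6261, 4906 and 6180 in VAV, and 4606, 5233 and 5485 in WT. DKO was above all other libraries, by a small margin over CDK19KO 1. Sp100 passed against CDK19KO (0.49 ± 0.12, limma adjusted p = 0.0421). Cmpk2, a mitochondrial nucleotide kinase that neighbours Rsad2 on chromosome 12, was 2312, 2721, 2106 and 2347 in DKO, 2224, 2152, 1721 and 1811 in CDK8KO, 1877, 1653, 1547 and 1458 in CDK19KO, 2816, 2300, 1926 and 1826 in VAV, and 1080, 1373 and 1203 in WT. Here only CDK19KO and WT lay wholly below DKO. Cmpk2 passed against CDK19KO (0.54 ± 0.14, limma adjusted p = 0.0493).

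The Mx genes passed in no comparison. Mx1 was 153, 186, 142 and 85.4 in DKO, 100, 166, 156 and 137 in CDK8KO, 221, 140, 153 and 184 in CDK19KO, 196, 179, 133 and 133 in VAV, and 85.0, 138 and 174 in WT. The genotypes overlapped throughout, and the difference from CDK8KO was -0.01 ± 0.26 (limma adjusted p = 0.988). Laboratory strains such as C57BL/6 carry a disrupted Mx1 gene. Mx2 was 75.5, 77.0, 61.1 and 77.9 in DKO, 38.0, 58.7, 44.9 and 52.7 in CDK8KO, 90.2, 54.4, 57.1 and 41.3 in CDK19KO, 101, 48.1, 46.2 and 31.9 in VAV, and 38.7, 63.8 and 78.0 in WT. Its DKO libraries lay just above those of CDK8KO (0.59 ± 0.32, limma adjusted p = 0.381) and within the range of every other genotype.

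The ADP-ribosyltransferases and their partner (Parp9, Dtx3l, Parp12 and Parp14) were higher in DKO than in both single knockouts in 4 of 4 cases, with medians of 0.48 and 0.47. Parp14, a mono-ADP-ribosyltransferase, was 3747, 4139, 4289 and 3949 in DKO, 2297, 3054, 2850 and 2674 in CDK8KO, 3678, 2572, 2528 and 2578 in CDK19KO, 3897, 3580, 3029 and 2765 in VAV, and 2367, 2879 and 2673 in WT. All DKO libraries stood above both single knockouts, with CDK19KO 1 close beneath. Parp14 passed against CDK8KO (0.57 ± 0.13, limma adjusted p = 0.0332) and CDK19KO (0.52 ± 0.13, adjusted p = 0.0493). Parp9, which forms a complex with the ubiquitin ligase Dtx3l, was 1354, 1491, 1507 and 1302 in DKO, 929, 1122, 914 and 1055 in CDK8KO, 1474, 929, 890 and 885 in CDK19KO, 1121, 1118, 884 and 1098 in VAV, and 916, 1017 and 940 in WT. DKO lay above every VAV, CDK8KO and WT library, and CDK19KO 1 lay within its range. Neither difference from a single knockout passed (0.49 ± 0.14 and 0.47 ± 0.14, limma adjusted p = 0.0883 and 0.105).

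Among transcription factors and adaptors, Irf7, the factor that amplifies interferon-alpha production, was 693, 808, 723 and 809 in DKO. It was 413, 434, 291 and 543 in CDK8KO, 682, 446, 442 and 427 in CDK19KO, 553, 557, 488 and 608 in VAV, and 305, 423 and 423 in WT. Each DKO library exceeded each of the other 15. Irf7 passed against CDK8KO (0.88 ± 0.18, limma adjusted p = 0.0161) and not against CDK19KO (0.63 ± 0.18, adjusted p = 0.0824). Irf9, the DNA-binding subunit of ISGF3, differed far less, at 1990, 2134, 2115 and 2442 in DKO, 2105, 2037, 1748 and 1672 in CDK8KO, 2128, 1674, 1715 and 1484 in CDK19KO, 2071, 2151, 1824 and 1662 in VAV, and 1571, 1720 and 1679 in WT. DKO overlapped every genotype but WT, and the differences in DKO were 0.20 ± 0.12 and 0.32 ± 0.12 (limma adjusted p = 0.424 and 0.193).

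The nucleic acid sensors Ifih1, Dhx58, Ddx60 and Ifi204 were 4 of 4 higher in DKO than in CDK8KO and in CDK19KO (medians 0.67 and 0.52). None passed in limma, and 3 of 4 were higher at an unadjusted p below 0.05 in each comparison. In the ISG15 system, 3 of 4 were higher, with medians of 0.20 and 0.10, and again none passed, with 0 and 1 at an unadjusted p below 0.05. Usp18, the protease that removes ISG15 and damps the interferon receptor, was 340, 396, 351 and 238 in DKO, 303, 323, 192 and 158 in CDK8KO, 271, 168, 145 and 127 in CDK19KO, 376, 212, 200 and 175 in VAV, and 140, 172 and 178 in WT. In DKO, 3 libraries stood above both single knockouts. Usp18 differed by 0.48 ± 0.28 from CDK8KO (limma adjusted p = 0.415) and by 0.93 ± 0.28 from CDK19KO (adjusted p = 0.100).

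Against VAV, its Cre-carrying control, DKO had 34 of 40 members higher and 6 lower, with a median of 1.25-fold (log2 0.33; all genes -0.01). None passed, where 1.52% of all genes passed in either direction. At an unadjusted p under 0.05, 10 were higher (7.44% of all genes), and for 5 members, Parp9, Irf7, Sp100, Zbp1 and Ifi27l2a, every DKO library was above every VAV library (4.16% of all genes). The smallest adjusted p was 0.150, for Ifi27l2a (0.81 ± 0.26), followed by Parp9 (0.43 ± 0.14, adjusted p = 0.158), Zbp1 (0.64 ± 0.22, 0.175) and Irf7 (0.46 ± 0.18, 0.225). All 11 neutrophil markers were lower in DKO (median -0.52), and Mmp8 (-1.04) and Camp (-0.82) passed. Of 8 monocyte markers 6 were lower and 2 higher (median -0.29), with none passing. At an unadjusted p under 0.05 in limma, 3 of the monocyte markers were lower and 1 higher. Of 10 T and NK cell markers 9 were higher (median 0.60), where Cd8a (1.83) passed as higher and Ncr1 (-1.28) as lower. Of 10 tissue macrophage markers 4 were higher and 6 lower (median -0.0004), and Cd163 (-3.01) and Hmox1 (-1.01) passed as lower. Erythroid markers were lower in 13 of 14 cases (median -0.54) with none passing, and with their level as a covariate the member median was 0.26. The 8 skeletal muscle markers were all higher (median 2.29), also with none passing. Of 11 plasmacytoid dendritic cell markers 7 were higher and 4 lower (median 0.03), with none passing. In limma, 2 of those 11 were higher and 0 lower at an unadjusted p under 0.05. The part of these lists in the member values was not tested. Measured against WT instead, which lacks the transgene, DKO had 14 members that passed as higher, where 1.41% of all genes did, and a median of 0.67.

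The interaction asked whether the Cdk19 null allele had another effect with Cdk8 flox/flox and Vav-iCre than without them. It was above 0 for 35 of 40 members, with a median of 0.41 (all genes 0.00). None passed (0.15% of all genes did), 7 were higher at an unadjusted p under 0.05 (4.5% of all genes), and the smallest adjusted p was 0.493. Zbp1 had that value, at 0.84 ± 0.33. The fit treats the transgene as part of the Cdk8 genotype, and all 14 erythroid markers had a negative interaction (median -1.82) with none passing. Of 10 T and NK cell markers 8 had a positive one (median 0.78), none passing, and among all the marker lists Cd163 alone passed (-2.38).

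CDK8KO had lower values than VAV for 35 of 40 members, but none passed, as was so for 0% of all genes. The median was 1.22-fold lower (log2 -0.29; all genes 0.00), and 8 members were lower at an unadjusted p under 0.05 (4.53% of all genes). For no member were the libraries separate, with 1.02% of all genes separate as higher and 0.737% as lower. Oas3 (-0.53 ± 0.21), Ifit3 (-0.72 ± 0.30), Irf7 (-0.42 ± 0.18) and Ifit1 (-0.73 ± 0.32) had the smallest p-values, with a limma adjusted p of 0.586 for each. All 14 erythroid markers (median 1.15) and 8 of 9 B cell markers (median 0.28) were higher in CDK8KO than in VAV, none passing, and without VAV 1 the member median was -0.18. Against WT the direction turned, with 34 of 40 members higher and a median of 0.15.

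CDK19KO had 35 of 40 members above WT, with a median of 1.11-fold (log2 0.15; all genes 0.00). None passed (0.0215% of all genes did), and 1 was higher at an unadjusted p under 0.05 (1.45% of all genes). Cmpk2, Irf7 and Ifi44 had every CDK19KO library above every WT library (3.56% of all genes). Their differences were 0.42 ± 0.15, 0.37 ± 0.19 and 0.54 ± 0.30, and that of Ifit1 was 0.66 ± 0.34, with a limma adjusted p of 1 for each. The median rested on CDK19KO 1, without which it was 0.01. Against VAV in place of WT it was -0.29. In CDK19KO against WT, CDK8KO against VAV, DKO against VAV and the interaction, edgeR and DESeq2 on the recovered reads also called 0 members.

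The Cre control itself had higher members than WT, which bears on which control is read. VAV exceeded WT for 37 of 40 members, with a median of 1.36-fold (log2 0.45; all genes -0.01). Cmpk2 passed, at 0.85 ± 0.15 (limma adjusted p = 0.0321), where 0.0716% of all genes passed as higher. At an unadjusted p under 0.05, 17 were higher (8.92% of all genes), and 9 had all VAV libraries above all WT libraries (6.93% of all genes), namely Cmpk2, Irf7, Ifi44, Oasl2, Oas3, Ifit1, Parp12, Ifit2 and Ifit3. Among those, Ifit1 had the largest difference at 1.59 ± 0.34 (adjusted p = 0.0829). All 8 monocyte markers were higher in VAV (median 0.52) and so were 10 of 11 neutrophil markers (median 0.29), with 4 of each at an unadjusted p under 0.05. Of 9 B cell markers 8 were lower (median -0.45), 0 of them at that p, and of 10 tissue macrophage markers 7 were lower (median -0.29), 3 at that p. All 14 erythroid markers were lower (median -0.74), 0 at that p, although VAV 3 was the second richest of the 19 libraries in them. No marker of these lists passed in limma, and their part in the member values was not tested. Without WT 1, WT 2, WT 3, VAV 1 or VAV 2 no member passed, without VAV 3 there were 6 (with 416 of all genes, against 13 with every library), and without VAV 1 the median was 0.27.

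Rsad2, Isg20 and Isg15 had their highest values in the 2 erythroid-rich libraries. In CDK8KO 1, Herc6 (1088) was also the highest of the 19 libraries. Cmpk2 (2224), Eif2ak2 (1737) and Irf9 (2105) were there the highest of their genotype. None of those other genes was highest of its genotype in VAV 3. Rsad2, the antiviral enzyme viperin, was 5347 in VAV 3 and 6132 in CDK8KO 1. In the other libraries it was 1106, 2506 and 1974 (WT), 2254, 1167 and 1036 (VAV 1, 2 and 4), 1734, 1248 and 1044 (CDK8KO 2 to 4), 2037, 3008, 2721 and 2128 (CDK19KO), and 1481, 1965, 1704 and 1865 (DKO). The 2 libraries with the most erythroid transcripts had more Rsad2 than any other. Isg20, an RNA exonuclease, was 1569 in VAV 3 and 2513 in CDK8KO 1, against 400, 269 and 414 in the other VAV and 653, 689 and 431 in the other CDK8KO libraries. It was 617, 658 and 501 in WT, 651, 878, 793 and 592 in CDK19KO, and 484, 504, 437 and 490 in DKO.

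Isg15, the ubiquitin-like protein that is conjugated to other proteins during the response, was also highest in these libraries, at 224 in VAV 3 and 272 in CDK8KO 1. The other values were 68.7, 144 and 105 in WT, 129, 96.3 and 129 in VAV, 105, 59.1 and 67.8 in CDK8KO, 193, 154, 157 and 101 in CDK19KO, and 125, 145, 111 and 136 in DKO. Rsad2, Isg20 and Isg15 passed in no comparison. In DKO against CDK19KO, Rsad2 (-0.48 ± 0.49), Isg20 (-0.59 ± 0.46) and Isg15 (-0.20 ± 0.38) were lower. The role of red cell precursors in these values was not tested.

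**Figure D4:**
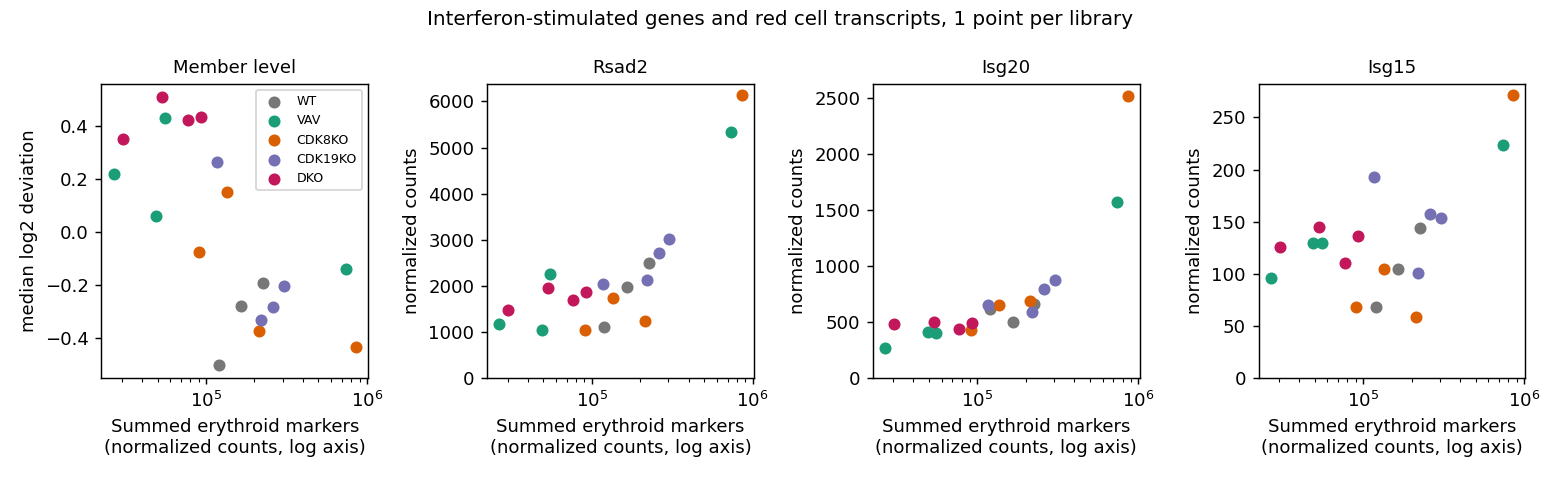
Member level (log2 units) and the normalized counts of Rsad2, Isg20 and Isg15 against the summed erythroid markers (normalized counts, log axis), 1 point per library, coloured by genotype. VAV 3 and CDK8KO 1, at 737070 and 856583 on the horizontal axis, have the highest values of the 3 genes and member levels below 0.

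As a description, each member's values were centred on its genotype means and correlated over the 19 libraries with the median of the set. Rtp4 (r = 0.96), Oasl2 (0.94) and Ifit3 (0.92) were closest to it, and the median member had r = 0.77. There were 5 members below 0.3, Herc6 (0.06), Isg15 (0.01), Bst2 (-0.01), Rsad2 (-0.23) and Isg20 (-0.46). The 5 genes outside the set most like its median were Trim30d (r = 0.90), Nod2 (0.89), Irgm2 (0.87), Slfn5 (0.86) and Parp10 (0.85). These libraries share depth and cell make-up across genes, and no test was made of the likeness.

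The genes upstream of the members showed no change that passed. Of 21 interferon ligands, 16 had no read in any library and none reached the mean needed for testing. A count of 0 allows up to 3 reads per library, for counting error only. Interferon-gamma (Ifng) had the most, 81 reads over all libraries, followed by Ifnz with 25, and Ifnb1 had 1. None of the 10 genes of the receptors and the JAK-STAT chain passed in any of the 7 comparisons, with medians of 0.10 and 0.15 in DKO against CDK8KO and CDK19KO and 1 gene higher at an unadjusted p below 0.05 in each.

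Genes that sense nucleic acids or restrain the pathway were likewise without a call in limma, 0 of 13 and 0 of 12 in each comparison. At an unadjusted p below 0.05, 3 and 4 of the sensing genes were higher in DKO than in CDK8KO and CDK19KO, and of the restraining genes 2 and 3 were higher and 3 and 2 lower. Ikbke, the inducible kinase beside Tbk1 that activates Irf3 and Irf7, had a mean of 760 in DKO, 423 in CDK8KO, 545 in CDK19KO, 500 in VAV and 530 in WT, and differed from CDK8KO by 0.83 (limma adjusted p = 0.0883). Adar, which edits self RNA, differed by 0.36 and 0.34 from the single knockouts (adjusted p = 0.136 and 0.165). The other interferon regulatory factors (6 of 7 tested, among them Irf1 and Irf8) had 0 calls, with medians of 0.08 against CDK8KO and 0.05 against CDK19KO and 1 gene higher at an unadjusted p below 0.05 in each.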

How the data were processed

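The values are the authors' deposited normalized counts, a signal in which the counts of each library were divided by 1 size factor. Per the submitters' processing notes, Salmon 1.4.0, DESeq2 and the mm10 genome were used, with no role or order given. Per the labels, polyadenylated RNA came from a Trizol extraction, and Kapa libraries were sequenced paired-end on a NovaSeq X. Whole reads were recovered in every library within 0.001 read. Coordinates are GENCODE vM21 (GRCm38), and promoter windows are RefSeq GRCm38.p6. Libraries of a genotype were not duplicates (lowest chi-square per degree of freedom 15.5).

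Values were fitted as log2(normalized count + 1) with limma 3.58.1 in R 4.3.3 (trend), with all 5 genotypes in 1 fit and no covariate, on genes with a mean of at least 10. P-values were adjusted by Benjamini-Hochberg over all genes tested within each of 7 comparisons, with a threshold of 0.05. Fold changes are on the log2(value + 1) scale, which understates those of low genes. The script was tested on simulated data. edgeR 4.0.16 and DESeq2 1.42.0 on the recovered reads, other scalings, filters, pseudocounts, controls and left-out libraries were alternatives.

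The members and the gene lists were chosen with earlier results of these data known. Values in every library are given for members that passed in any comparison, for the 4 with the smallest p in each comparison of a knockout with its control, for Ifit1, Isg15, Irf7, Irf9, Usp18 and Mx1 as reference genes, and for the most and least abundant members per length. One further reference gene is not reported here. Rsad2 and Isg20 were added after their values were seen. Beside the pathway lists, markers of plasmacytoid dendritic cells, monocytes, tissue macrophages, neutrophils, B cells, T and NK cells, erythroid cells and skeletal muscle were summed per library. In the monocyte list 1 of 8 genes passed (Fn1, lower in DKO against CDK8KO) and in the B cell list 0 of 9 in limma (1 lower at an unadjusted p under 0.05 in each comparison of DKO with a single knockout).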

Additional observations from a re-analysis of the deposited data

Results flagged for a closer look

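Members vary together within libraries (median r = 0.77 with the median of the set), so the groups below are not independent of each other. There were 88 groups of 4 libraries, each for 1 gene or the member level in 1 genotype. In 11 of them a library lay far from the other 3, where chance gives about 1 in 20 for independent, normally distributed values. High values of CDK19KO 1 made up 5 of these: Irf7 at 682 normalized counts (the other 3 at 427 to 446), Ifi27l2a at 1098 (518 to 534), Parp9 at 1474 (885 to 929), Oasl2 at 2463 (1112 to 1318) and Parp14 at 3678 (2528 to 2578). In VAV 3, one of the erythroid-rich libraries, Parp9 was low at 884 (1098 to 1121), Zbp1 at 303 (570 to 581) and Sp100 at 4906 (6180 to 6261). Sp100 was also low in CDK8KO 1, the other erythroid-rich library, at 4692 (5637 to 5807). Zbp1 was high in DKO 2 at 872 (716 to 738), and Mx2 was low in DKO 3 at 61.1 (75.5 to 77.9).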

How the results depend on the processing

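Of the members that passed, 6 in DKO against CDK8KO, 10 in DKO against CDK19KO and 1 in VAV against WT, the numbers changed as follows. The share of all genes tested that passed in the same fit stands in brackets, and it was 1.7%, 2% and 0.093% in the fits as reported. In DKO against CDK19KO they were 4 with no filter on low values (1.11%), 3 with edgeR (1.78%), 17 with DESeq2 (4.32%), 20 with only the genotypes compared in the fit, 19 of them higher (6.93%), 6 without the 4 libraries richest in erythroid or muscle transcripts (3.44%), 25 with library weights (8.95%) and 0 with the erythroid covariate (0.93%). In DKO against CDK8KO they were 15 with DESeq2 (5.11%), 1 with only the genotypes compared (0.222%), 0 without the 4 rich libraries (0.58%), 1 with library weights (0.758%) and 0 with the covariate (1.55%). In VAV against WT they were 6 with DESeq2 (2.79%), 0 with only the genotypes compared (0.0215%), 9 without the rich libraries (5.89%) and 7 with library weights (4.58%). With single libraries left out the ranges were 0 to 18, 0 to 13 and 0 to 6. With WT as the control, DKO had 14 calls (2.1%) and a median of 0.67, and the median of CDK8KO was 0.15, with reversed values for Oas3 (0.30), Ifit3 (0.36), Irf7 (0.11) and Ifit1 (0.86). With VAV as the control the median of CDK19KO was -0.29, with reversed values for Cmpk2 (-0.43), Ifit1 (-0.93), Irf7 (-0.17) and Ifi44 (-0.39). Settings that leave out libraries hold fewer samples, and the cause of the other changes was not tested. The member medians of all 7 comparisons kept their sign in the other alternatives. The deviations of same-numbered libraries had correlations from -0.14 to 0.31. With 3 or 4 pairs per comparison, these cannot settle whether the numbers pair the libraries. With the number as a replicate block 9, 7 and 2 members passed (1.88%, 1.46% and 0.129%) in DKO against CDK19KO, DKO against CDK8KO and VAV against WT. Depth was no limit for the members, which all had reads in every library, but it is for the interferon ligands.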

Other observations

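Socs3, an inducible inhibitor of JAK-STAT signalling among the genes that restrain the pathway, had a pattern across genotypes that no member shared. It was 469, 302 and 655 normalized counts in WT, and its means were 194 in VAV, 160 in CDK8KO, 188 in CDK19KO and 256 in DKO. The difference was -1.33 in VAV against WT (limma adjusted p = 0.230) and the same in CDK19KO against WT (adjusted p = 1), and neither passed. The values were chosen for mention after they were seen. Ccr9 is a receptor of plasmacytoid dendritic cells and of some lymphocytes. It was 283 in DKO 1, against 776, 955 and 881 in the other DKO libraries. Ccr9 is 1 of the 11 plasmacytoid dendritic cell markers. As a list these had medians of -0.06 in DKO against CDK8KO (5 higher, 6 lower) and 0.04 against CDK19KO (7 higher, 4 lower). The member level of DKO 1, at 0.35, was the lowest of the 4, which reached up to 0.51, and a link to Ccr9 was not tested.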
